A study of Mus musculus with 2 samples.

Results

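Chemokines and interleukins are small secreted proteins through which cells call in and instruct leukocytes and other neighbours. The genes described here were chosen by name. They are the mouse genes for chemokine ligands (Cxcl, Ccl, Cx3cl and Xcl), for interleukins and for Il1rn, Il1f5 to Il1f9, Csf1, Csf2, Csf3, Lif, Osm, Tslp and Mif, on probe sets that the array annotation pairs with 1 gene symbol alone. Of 13869 genes in the value table, 49 were such ligands, read by 62 probe sets. Both populations, luminal VenusHigh and luminal VenusLow cells, came from the same pool of 3 virgin mice, 5 months old, on an FVB background. All were heterozygous Tbx3+/Venus knock-ins, in which the Venus fluorescent protein replaces 1 allele of the T-box repressor Tbx3 and reports activity of its locus, so cells of both populations carry a single working Tbx3 allele. After exclusion of dead cells, CD45+ cells and stromal cells, luminal cells were gated on CD24 and CD49f, and 200000 cells of each population were sorted. Each population was hybridized to 1 GeneChip array, so there are no replicates, no p-values and no error between animals, and the number of arrays limits the precision.

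Chemokines share conserved cysteines and are classed by how the first pair is spaced, as in the CXC and CC families. They bind G protein-coupled receptors and guide migrating cells along gradients. Interleukins act through several unrelated receptor families. Those of the interleukin-1 family signal through receptors with a TIR domain and switch on NF-kB, and some of them are kept inside epithelial cells until damage releases them. In the mammary gland, leukocytes lie around and within the ductal epithelium, and hormone-sensing luminal cells are known to pass on the effect of steroid hormones through secreted factors.

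Values are log2 array signals, and the lowest value, 3.32, is the log2 of a signal of 10, here called the floor. For a ligand at the floor in VenusLow cells alone the difference is a lower bound, and for one that sits there in both populations no difference can be given. The value table holds 0 probe sets that were lower in VenusHigh than in VenusLow cells, so ligands lower in VenusHigh cells are not analysed here and differences lie at or above 0 by construction. Of 85 RefSeq genes that match the naming rule, 36 had no probe set of their own in the table and are not analysed here, among them Ccl2, Ccl5, Ccl20, Cxcl1, Cxcl2, Cxcl10, Cxcl16, Cx3cl1, Il1b, Il6, Il15, Csf1, Lif and Tslp. Where several probe sets of 1 gene reached a signal of 100, their log2 differences had an SD of 0.31, pooled over 1062 genes, which covers spread within these 2 arrays and not between animals. As probe sets with a negative difference are missing from the table, this SD may be too small. As each value is the mean over a sorted population, more cells with a transcript and more transcript per cell cannot be told apart.

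The sort and the identity of the cells were checked on marker genes. Of 8 markers of alveolar luminal cells, 0 had a value, so the identity of the VenusLow cells among luminal cells was not checked. Of 8 hormone-sensing markers, 6 had a value, and each differed by 4-fold or more in favour of VenusHigh cells. Prlr and Ly6a had none. As the table holds 0 probe sets lower in VenusHigh cells, no marker could go the other way. Only the size of these differences is therefore informative. Tbx3, whose locus drives the reporter, had log2 signals of 8.72 in VenusHigh and 3.62 in VenusLow cells. Of the 8 markers of luminal cells in general, 3 had a value, and Krt8 had 13.22 in VenusHigh and 13.13 in VenusLow cells. Of 22 leukocyte markers, 17 had a value and all 17, Ptprc (CD45), Cd3e, Cd79a, Itgam, Tyrobp and Lyz2 among them, were at the floor on both arrays. The other 5, the macrophage markers Cd68 and Adgre1 among them, are not analysed here. Of 9 basal markers, 5 had a value, and all 5 lay at the floor in both populations. Of 8 endothelial markers, 4 had a value, and 3 of these lay at the floor in both. The others, Krt5 and Pecam1 among them, had no value. A probe set higher in VenusLow cells would be missing from this table. The markers without a value could therefore have been higher in VenusLow cells. Those at the floor on both arrays were not detected in VenusLow cells either. Whether the VenusLow cells were wholly free of leukocytes, basal or endothelial cells was not tested. Of 10 fibroblast markers 9 had a value and 4 were above the floor, with summed signals of 152.8 in VenusHigh and 112.5 in VenusLow cells. Among these, Dcn (decorin) had 6.01 in VenusHigh and 4.89 in VenusLow cells, while Col3a1, Pdgfrb, Lum, Thy1 and Dpt were at the floor on both arrays.

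Among the ligands with a value, a few were far higher in VenusHigh than in VenusLow cells. Most of the others with a value were at or near the floor in both. Ligands whose probe sets were higher in VenusLow cells would be missing here, as would the 36 without a probe set of their own. Of the 49 ligand genes, 34 lay at the floor in both populations and 15 were above it in VenusHigh cells, of which 7 were at the floor in VenusLow cells. The share above the floor was 30.6% of the ligands, against 51.8% of all genes of the table, and the share at the floor on both arrays was 69.4% of the ligands, against 48.2% of all genes. A signal of 100, set as the lowest that was read as expression, was reached by 5 ligands, Cxcl12, Cxcl15, Cxcl17, Il33 and Mif, or 10.2%, against 27.7% of all genes. A gene was counted as higher when it reached a signal of 100 and differed by at least 4-fold, a log2 difference of 2. This held for 4 ligands, Cxcl12, Cxcl15, Cxcl17 and Il33, or 8.16% of the 49, where the share among all 13869 genes was 2.38% (330 genes). Those 330 make up 8.58% of the genes that reached a signal of 100. With signals under 100 raised to 100, 3 ligands remained above 4-fold, Cxcl15, Cxcl17 and Il33, or 6.12%, against 1.22% of all genes. The median log2 difference of the 5 ligands that reached 100 was 3.95 and that of all 3847 such genes was 0.46, given as a description, since a gene that reached 100 through VenusHigh cells alone had to differ. By class, the higher genes were 3 of 9 CXC chemokines and 1 of 6 members of the interleukin-1 family, and 0 of 13 CC chemokines reached a signal of 100.

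**Figure D1:**
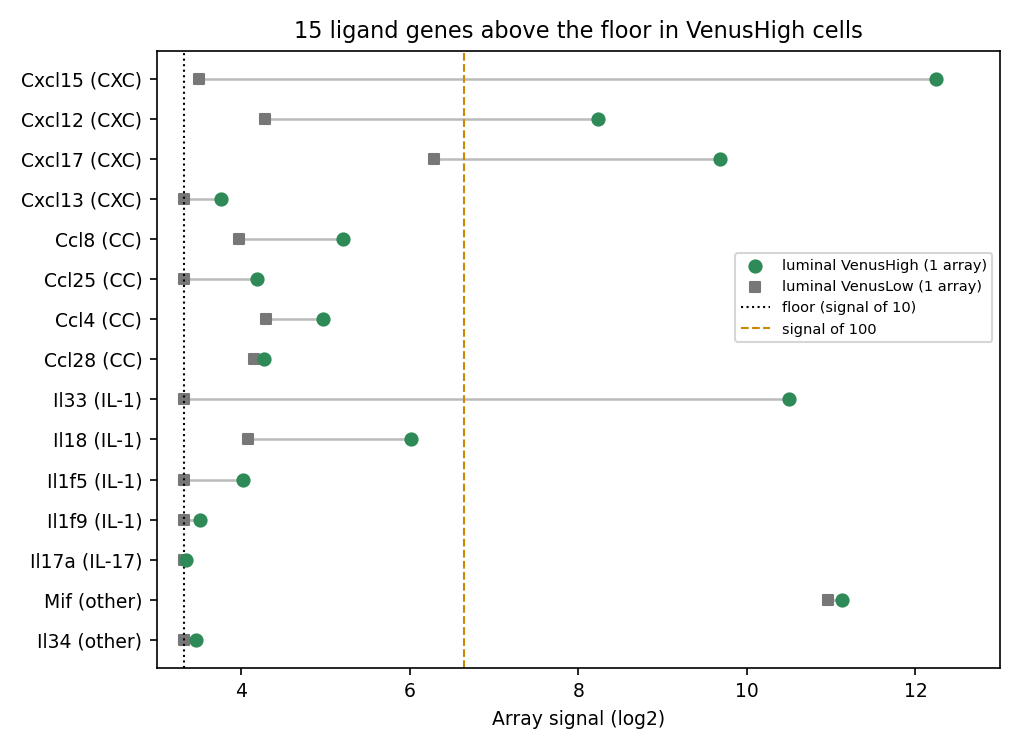
Array signal (log2, horizontal axis) of the 15 ligand genes above the floor, ordered by class, with green circles for luminal VenusHigh and grey squares for luminal VenusLow cells, from 1 array each. Dotted, the floor at a signal of 10, and dashed, a signal of 100. Cxcl15, Cxcl12, Cxcl17 and Il33 cross the dashed line in VenusHigh cells alone, and Mif lies to the right of it in both populations.

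Cxcl15, also known as lungkine, is a CXC chemokine that attracts neutrophils and was described in epithelium of the mouse lung. Its signal was 4852 (log2 12.24) in VenusHigh cells and 11.3 (log2 3.50) in VenusLow cells on probe set 1421404_at. The VenusLow value lay just above the floor. The log2 difference was 8.74 as deposited. As a signal of 11.3 is below what was read as expression, the size is better given as a bound, at least 5.60 on the log2 scale with signals under 100 raised to 100. A second probe set, 1456428_at, read 10.85 in VenusHigh cells and the floor in VenusLow cells, so its difference of 7.53 is a lower bound. Both probe sets thus gave a signal far above 100 in VenusHigh cells and at most 11.3 in VenusLow cells.

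Il33 encodes a cytokine of the interleukin-1 family that is stored in the nucleus of epithelial and endothelial cells and acts as an alarm signal to type 2 innate lymphoid cells and mast cells when cells are damaged. Its 1 probe set read a signal of 1448 in VenusHigh cells, 10.50 on the log2 scale, and the floor in VenusLow cells. As deposited, the difference was at least 7.18 on the log2 scale, or at least 145-fold. The floor is below what was read as expression, so here too the size is better given as a more cautious bound. That bound is at least 3.86 on the log2 scale, with signals under 100 raised to 100.

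Promoter windows are shown for these genes and for Cxcl12, because they are the ligands with the largest differences and the table of RefSeq windows, on GRCm38.p6, holds them. Each window runs 5′ to 3′ on the plus strand from 250 bases before to 50 bases after an annotated start site, and capitals mark matches to any of 6 motifs, none of which overlap in the windows shown. The motifs were searched on both strands as the TATA box (TATAAA), a forkhead site (TGTTTAC), a T-box site (GGTGTGA), the half-site of the estrogen response element (AGGTCA), an AP-1 site (TGANTCA) and the NF-kB consensus. Il33 has 2 annotated start sites, and which of them the array signal comes from was not measured.
Cxcl15, chr5:90794284-90794583: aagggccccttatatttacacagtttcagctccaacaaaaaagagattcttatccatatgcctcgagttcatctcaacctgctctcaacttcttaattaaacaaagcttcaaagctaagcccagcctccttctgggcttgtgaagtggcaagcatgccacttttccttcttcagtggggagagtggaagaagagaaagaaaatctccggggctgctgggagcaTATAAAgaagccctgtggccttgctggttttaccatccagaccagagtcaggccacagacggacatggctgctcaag
Il33, first start site, chr19:29924863-29925162: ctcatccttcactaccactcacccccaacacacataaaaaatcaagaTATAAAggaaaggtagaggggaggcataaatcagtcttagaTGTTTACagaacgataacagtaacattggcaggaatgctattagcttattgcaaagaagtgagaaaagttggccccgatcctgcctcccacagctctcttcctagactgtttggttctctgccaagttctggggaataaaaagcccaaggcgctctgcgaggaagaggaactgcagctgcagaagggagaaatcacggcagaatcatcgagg
Il33, second start site, chr19:29945540-29945839: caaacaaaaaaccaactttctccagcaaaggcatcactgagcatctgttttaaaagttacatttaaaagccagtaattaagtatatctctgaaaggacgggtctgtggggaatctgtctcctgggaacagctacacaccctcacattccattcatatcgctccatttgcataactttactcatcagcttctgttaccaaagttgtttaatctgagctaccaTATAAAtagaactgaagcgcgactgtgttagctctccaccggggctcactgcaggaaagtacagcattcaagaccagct
Cxcl12, chr6:117168285-117168584: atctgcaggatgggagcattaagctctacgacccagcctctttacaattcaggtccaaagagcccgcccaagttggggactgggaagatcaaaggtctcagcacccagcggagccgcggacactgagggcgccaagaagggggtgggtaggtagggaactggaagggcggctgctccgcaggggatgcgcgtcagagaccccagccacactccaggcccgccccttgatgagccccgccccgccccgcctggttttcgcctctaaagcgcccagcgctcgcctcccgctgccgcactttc

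The window of Cxcl15 held TATAAA at position -27 from the start site, and the window of the second Il33 start site held it at -29. A TATAAA between positions -35 and -20 was found in 1.84% of the 32851 windows of the table, and anywhere in the window on either strand in 13.6%. The window of the first Il33 start site held TATAAA at -203 and the forkhead letters at -162, which were present in 3.65% of all windows. None of the 6 motifs was found in the Cxcl12 window or in that of Mif. The shares of all windows with a match were 3.98% for the T-box letters, 16.3% for the half-site of the estrogen response element, 7.81% for AP-1 and 8.46% for NF-kB, and the windows of Cxcl15 and Il33 held none of these. The GC content of the Cxcl12 window was 64.7% with 20 CpG pairs, that of Cxcl15 47.7% with 3, and those of the 2 Il33 windows 46.3% with 6 and 42.3% with 5, where the median over all windows was 52.7% with 7. A match of letters describes the window and is no evidence of binding.

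Cxcl12, or SDF1, is the ligand of Cxcr4 and Ackr3, keeps hematopoietic and other migrating cells in place and is made in many tissues by stromal cells. On probe set 1448823_at its signal was 300.5 (log2 8.23) in VenusHigh cells and 19.5 (log2 4.28) in VenusLow cells. The log2 difference was 3.95, a 15.4-fold difference, and 1.59 when signals under 100 were raised to 100, which ends the 4-fold call. A second probe set, 1417574_at, read 6.74 in VenusHigh and 4.63 in VenusLow cells, a difference of 2.11. With signals under 100 raised to 100, the difference on that probe set was 0.10. The remaining one, 1439084_at, lay at the floor in both populations. The summed signal of the 9 fibroblast markers with a value was 152.8 in VenusHigh and 112.5 in VenusLow cells, in a table that holds no lower values in VenusHigh cells. As deposited, the difference was 1.12 for Dcn, 0.15 for Col1a1, 0.16 for Col1a2 and 0.36 for Fbln1, the markers above the floor. After median centring, it was 0.46 for Dcn and negative for Col1a1 (-0.51), Col1a2 (-0.50) and Fbln1 (-0.30). Col1a1 and Fbln1 are at the floor in VenusLow cells, where centring turns any small excess negative. After quantile normalization, only Col1a2 was negative (-0.53). Whether fibroblasts add to the Cxcl12 value was not tested.

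Cxcl17 encodes a chemokine of mucosal surfaces that attracts monocytes and dendritic cells. The array read a signal of 818 (log2 9.68) in VenusHigh cells and 78.4 (log2 6.29) in VenusLow cells. Unlike Cxcl15 and Il33, it had a VenusLow value well above the floor. The difference was 3.38 on the log2 scale, or 10.4-fold, and 3.03 when signals under 100 were raised to 100.

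Mif encodes macrophage migration inhibitory factor, a cytokine that most cell types make. It had a signal of 2239 (log2 11.13) in VenusHigh cells and 1996 (log2 10.96) in VenusLow cells. The difference of 0.17 lay below the SD of 0.31 between probe sets. It had no settled direction, since it became -0.49 when the arrays were centred on their medians and -0.53 after quantile normalization. The remaining 2 probe sets of Mif stayed at the floor throughout.

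**Figure D2:**
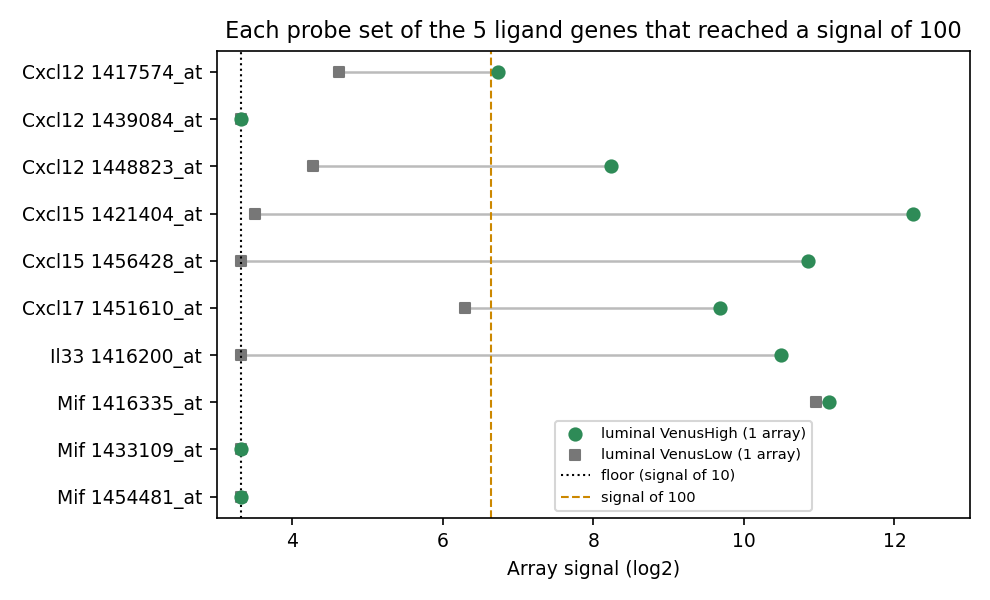
Array signal (log2, horizontal axis) on each probe set of the 5 ligand genes that reached a signal of 100, with green circles for luminal VenusHigh and grey squares for luminal VenusLow cells, from 1 array each. Both Cxcl15 probe sets span most of the axis, the Cxcl12 probe sets read 8.23, 6.74 and the floor in VenusHigh cells, and only the first Mif probe set is above the floor.

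**Figure D3:**
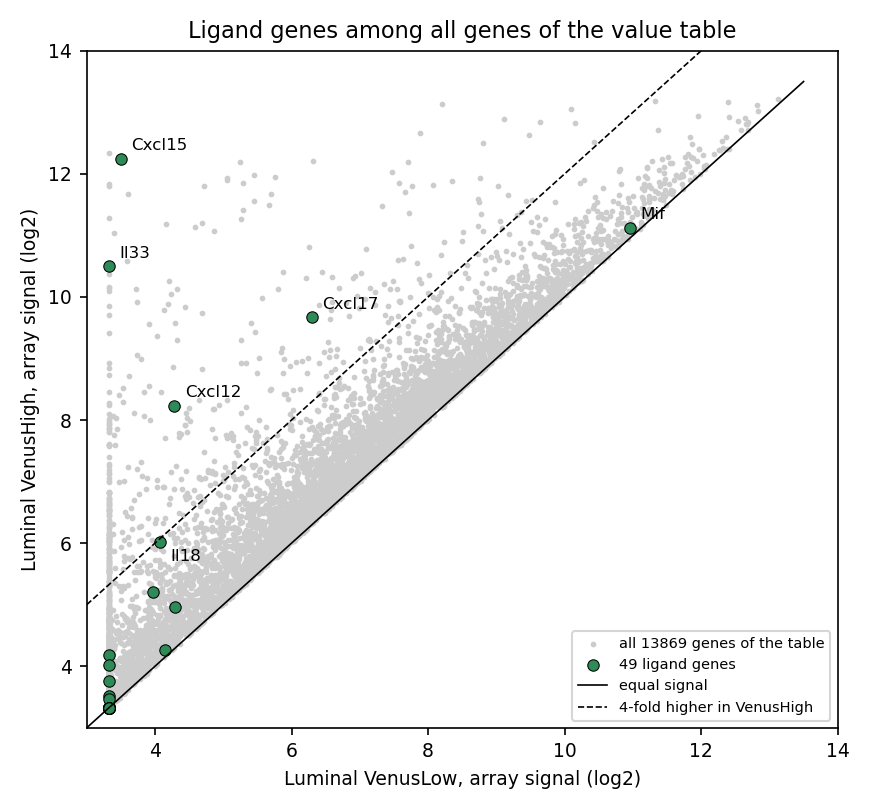
Array signal (log2) of all 13869 genes (grey points) and of the 49 ligand genes (green points) in luminal VenusHigh cells (vertical axis) and luminal VenusLow cells (horizontal axis), 1 array per population. The solid line marks equal signals and the dashed line a 4-fold higher signal in VenusHigh cells. No gene of the table lies below the solid line. Cxcl15, Il33, Cxcl12 and Cxcl17 lie above the dashed line and Il18 just under it.

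Below a signal of 100, Il18 came closest to the threshold. It encodes a cytokine of the interleukin-1 family that caspase-1 cleaves into its active form. Its signal was 64.7 (log2 6.01) in VenusHigh cells and 16.9 (log2 4.08) in VenusLow cells. The difference of 1.94, or 3.83-fold, lay just under 4-fold as deposited. It was 1.28 after median centring and 1.12 after quantile normalization. Raising signals under 32 to 32 gave 1.01, and raising those under 100 to 100 gave 0. Apart from Il33, described above, the other members of this family with a value did not reach a signal of 50. Il1f5, which encodes the antagonist of the interleukin-36 receptor, had 4.02 in VenusHigh cells and the floor in VenusLow cells, and Il1f9, which encodes interleukin-36 gamma, had 3.51 in VenusHigh cells and the floor in VenusLow cells. Il1a and Il1f8 stayed at the floor in both populations. Il1b, Il1rn and Il1f6 are not analysed here.

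Of the 13 CC chemokines with a value, 0 reached a signal of 100 and 9 stayed at the floor in both populations. Among all genes of the table, 27.7% reached a signal of 100 and 48.2% stayed at the floor in both. Ccl8, a monocyte chemoattractant, had log2 signals of 5.20 in VenusHigh and 3.98 in VenusLow cells, a difference of 1.23. Ccl4, which attracts monocytes and T cells, had 4.97 in VenusHigh and 4.29 in VenusLow cells. Ccl28, a chemokine of mucosal epithelia that draws IgA-producing cells into the lactating mammary gland, had 4.27 in VenusHigh and 4.15 in VenusLow cells on 1 probe set and the floor on another. Ccl25, which guides lymphocytes to thymus and small intestine, had 4.19 in VenusHigh cells and the floor in VenusLow cells, and its other probe set read 3.60 in VenusHigh cells and the floor in VenusLow cells. With signals under 100 raised to 100, these 4 genes have a difference of 0. Ccl1, Ccl3, Ccl6, Ccl7, Ccl11, Ccl12, Ccl17, Ccl22 and Ccl24 were at the floor on both arrays.

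Among the remaining chemokines, Cxcl13, which attracts B cells, had a log2 signal of 3.76 in VenusHigh cells and the floor in VenusLow cells. The neutrophil attractants Cxcl3 and Cxcl5, the interferon-induced T cell attractants Cxcl9 and Cxcl11, Cxcl14 and the C chemokine Xcl1 were at the floor on both arrays. In 2 classes of cytokines, no gene with a value was above the floor, while 51.8% of all genes were above it in VenusHigh cells. The 9 genes of hematopoietic four-helix cytokines that were read, Il2, Il3, Il4, Il5, Il7, Il9, Il13, Il21 and Csf2, were at the floor on both arrays. So were the 5 that were read of the interleukin-6, interleukin-10 and interleukin-12 types, Il10, Il11, Il12a, Il12b and Il31, while Il6, Lif, Osm, Il23a and others of these classes are not analysed here. Of the interleukin-17 family, Il17a had 3.35 in VenusHigh cells, barely off the floor, and Il17d and Il25 were at the floor on both. Il34, a ligand of the Csf1 receptor, had 3.47 in VenusHigh cells and the floor in VenusLow cells, and Il16 was at the floor on both. A transcript at the floor was not detectable on these probe sets, which does not show that it is absent.

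Cxcl15 lies in a chromosomal row of CXC chemokine genes that is followed by genes of the EGF family. The gene order is taken from RefSeq GRCm38.p6, and 7 protein-coding genes on each side were read. The 4 CXC genes directly before Cxcl15, which are Cxcl5, Ppbp, Pf4 and Cxcl3, lay at the floor in both populations, and Cxcl1 and Cxcl2, directly after it, are not analysed here. Further out, Rassf6, a gene of a RAS-association domain protein, had log2 signals of 9.79 in VenusHigh and 6.58 in VenusLow cells, a difference of 3.21. Epgn, which encodes the EGF receptor ligand epigen, had 10.40 in VenusHigh and 6.44 in VenusLow cells, a difference of 3.96. Btc, which encodes betacellulin, had 7.93 in VenusHigh and 5.96 in VenusLow cells, a difference of 1.97. Mthfd2l and Ereg differed by 0.94 and 0.08, and Areg is not analysed here. As deposited, Rassf6 before and Epgn after Cxcl15 each differed by over 3 log2 units. Of the 3847 genes that reached a signal of 100, 3.98% differed by at least 3.38, the value of Cxcl17. How often such genes lie this close to each other was not tested. After median centring, the difference was 2.55 for Rassf6 and 3.30 for Epgn.

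**Figure D4:**
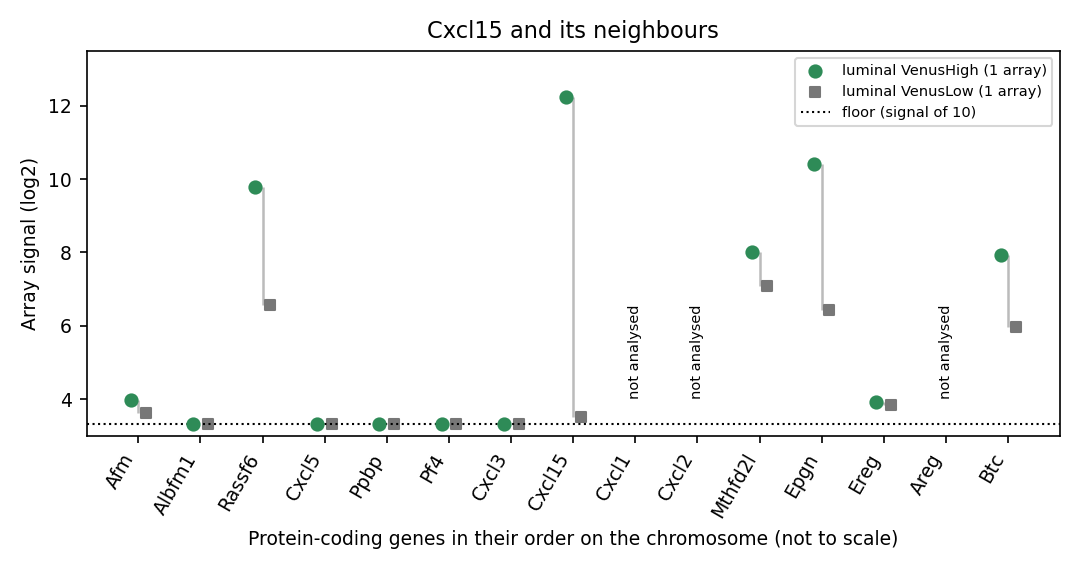
Array signal (log2, vertical axis) of Cxcl15 and the 7 protein-coding genes on each side, in their order on the chromosome and not to scale, with green circles for luminal VenusHigh and grey squares for luminal VenusLow cells, from 1 array each. Cxcl5, Ppbp, Pf4 and Cxcl3 lie on the dotted floor, while Rassf6, Cxcl15 and Epgn show the widest gaps between the populations.

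In the CC chemokine row that holds Ccl8, Ccl7, Ccl11 and Ccl12, directly before it, and Ccl1, directly after it, were at the floor on both arrays, while Ccl8 read 5.20 in VenusHigh and 3.98 in VenusLow cells. Ccl2 is not analysed here.

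Receptors through which these ligands act were read from lists of such genes. Of 23 chemokine receptor genes, 15 had a value, 11 of them lay at the floor in both populations and 0 reached a signal of 100. Those above the floor were Ackr2, Ackr4, Ccr10 and Cx3cr1, with log2 signals of at most 4.31 in VenusHigh and 3.95 in VenusLow cells. Cxcr2, which binds neutrophil-attracting CXC chemokines, was at the floor on both arrays, and the Cxcl12 receptors Cxcr4 and Ackr3 are not analysed here. Of 44 cytokine receptor genes, 34 had a value. Of these 34, 18 stayed at the floor in both populations and 7 reached a signal of 100. Lifr and Il18r1, 2 of those 7, were at least 4-fold higher in VenusHigh cells. Among all 13869 genes, 48.2% stayed at the floor in both populations, 27.7% reached a signal of 100 and 2.38% were counted as higher. Lifr, the receptor chain for leukemia inhibitory factor, had 9.91 in VenusHigh and 6.59 in VenusLow cells, a difference of 3.32. Il18r1, which binds interleukin-18, had 7.99 in VenusHigh and 5.53 in VenusLow cells, a difference of 2.47 that was 1.81 after median centring, 1.77 after quantile normalization and 1.35 when signals under 100 were raised to 100, each under 4-fold. Its partner Il18rap had 4.12 in VenusHigh cells and the floor in VenusLow cells.

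The other cytokine receptors that reached a signal of 100 differed by less than 4-fold. Crlf2, the receptor of Tslp, had 8.46 in VenusHigh and 7.16 in VenusLow cells, and Il13ra1, a chain shared by interleukin-4 and interleukin-13, had 8.74 in VenusHigh and 7.41 in VenusLow cells. Il17rc had 6.96 in VenusHigh and 5.35 in VenusLow cells. Il6st, the gp130 chain with which Lifr pairs, had 8.91 in VenusHigh and 8.72 in VenusLow cells, and Il1r1 had 6.89 in VenusHigh and 6.86 in VenusLow cells. The last 2 differences are negative after median centring, at -0.47 and -0.63. Il1rap, the partner chain of the Il33 receptor, lay at the floor in both populations, and that receptor itself, Il1rl1, is not analysed here.

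Genes of ligand maturation and of the NF-kB pathway had few values. Of 9 maturation genes, 5 had a value, and Adam10, a protease that sheds membrane-bound chemokines and cytokine receptors, had 11.56 in VenusHigh and 9.44 in VenusLow cells. Its difference of 2.13 is past 4-fold, but it was 1.47 after median centring and 1.41 after quantile normalization. Gsdmd, whose protein forms the pores through which mature interleukin-1 family cytokines leave cells, had 6.06 in VenusHigh cells and the floor in VenusLow cells and did not reach a signal of 100. Dpp4, which trims Cxcl12 and other chemokines, was at the floor on both arrays, and Casp1 is not analysed here. Of 18 NF-kB pathway genes, 14 are not analysed here, so the list has no direction. Of the other 4, Bcl3, a nuclear cofactor of NF-kB, had 9.41 in VenusHigh and 8.18 in VenusLow cells, and Nfkbib, an inhibitor of it, had 6.70 in VenusHigh and 6.50 in VenusLow cells.

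The 4 ligands counted as higher, each on the probe set that stood for it, kept that call under median centring and quantile normalization. Under these, the log2 difference was 8.08 and 8.05 for Cxcl15, 6.52 and 6.83 for Il33, 3.29 and 3.19 for Cxcl12 and 2.72 and 2.67 for Cxcl17. For Cxcl15 and Il33, a higher floor lowered the difference more than either scaling did. With the floor at 32, the difference was 7.24 for Cxcl15 and 5.50 for Il33, and it stayed at 3.38 for Cxcl17, whose signals exceed 32 on both arrays. The order of Cxcl12 and Cxcl17 depended on the floor and on the probe set. Cxcl17 had the larger difference at a floor of 32 or 100, and also at a floor of 10 when Cxcl12 was read as the median of its probe sets (2.45) or on the one with the highest VenusLow value (2.11).

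**Figure D5:**
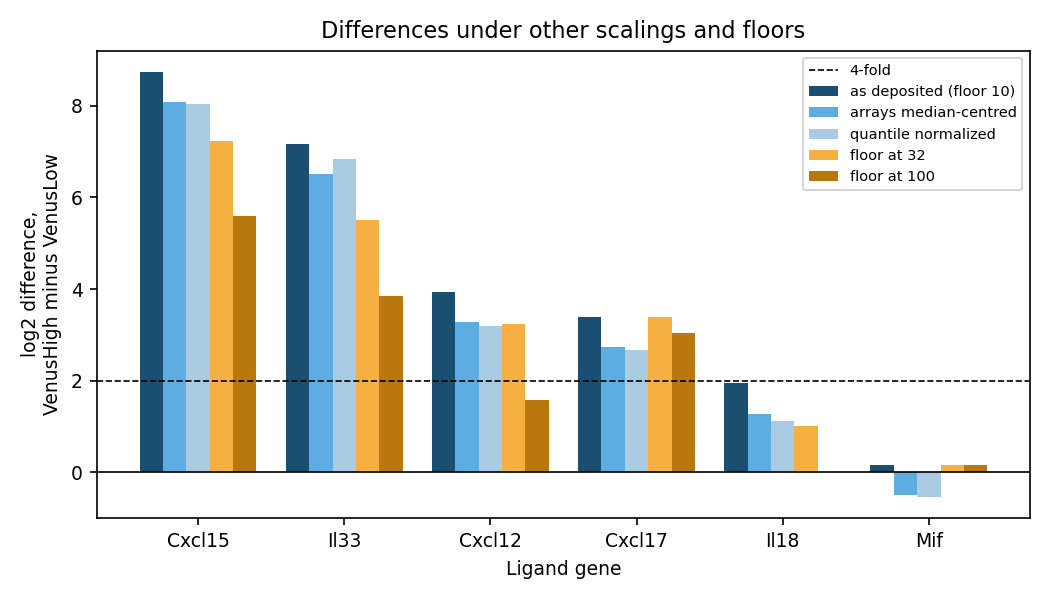
log2 difference, VenusHigh minus VenusLow (vertical axis), of 6 ligand genes as deposited, with each array centred on its median, with quantile normalization and with signals floored at 32 or 100, from 1 array per population. The dashed line marks 4-fold. Cxcl15, Il33 and Cxcl17 stay above it under all 5 settings, Cxcl12 lies under it with the floor at 100, Il18 lies under it throughout, and Mif changes sign.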

How the data were processed

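RNA of both sorted populations, VenusHigh and VenusLow, with an integrity number above 9.4, was measured on 1 Affymetrix GeneChip mouse genome array per population, from 250 ng of total RNA. The deposited values are log2 signals: the authors applied a log2 transformation, then normalized and centred each sample in the BRB Array package. MAS5 is named as a tool by the submitters' processing notes. The sources used here do not give the factor by which the arrays were scaled, so whether they share a scale is unknown. The median over all 29338 probe sets was at the floor on both arrays, while the median over those reaching a signal of 100 was 8.21 for VenusHigh and 7.55 for VenusLow cells. As the table holds 0 probe sets lower in VenusHigh cells, its VenusHigh median could not be the lower one. These medians thus do not show whether the arrays share a scale. Columns of other samples numbered 0.

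Of the probe sets, 22223 had 1 gene symbol, 602 several and 6513 none in the platform annotation. Symbols were updated through RefSeq GRCm38.p6, which changed the match of 0 ligands. Where several probe sets read 1 gene, the one whose log2 values averaged highest stood for it. Every ligand that reached a signal of 100, each that reached 50, and the 5 next in signal were named, with list genes that reached 100. Other genes were named to fill out a count after their values were seen. The members and lists were chosen with earlier results of these data known, and the motifs after the values were seen. No test was run, as each group is 1 array. Alternatives were median centring, quantile normalization, other floors, signal minimums, folds and ways to pick probe sets. The computation, done with pandas 2.3.3, numpy 2.4.6 and matplotlib 3.10.9 under Python 3.11.15, was tested on simulated data.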

Additional observations from a re-analysis of the deposited data

How the results depend on the processing

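The count of 4 ligands at least 4-fold higher in VenusHigh cells lay between 3 and 4 under all alternatives run, and the 3 was found with the floor at 100, where Cxcl12 dropped out. That floor took the count over all genes to 169, against 330. The median log2 difference of the ligands that reached a signal of 100, 3.95, was 3.29 after median centring, 3.19 after quantile normalization, 3.38 with the floor at 32 or with the probe set of the highest VenusLow value, and 3.03 with the floor at 100. It was 5.28 when a gene took the median over its probe sets, where Mif no longer reaches 100, and 0 with no signal minimum, where all 49 ligands count. Differences changed sign after median centring for Mif (-0.49), Ccl28 (-0.54), Cxcl13 (-0.22), Il1f9 (-0.47), Il34 (-0.51) and Il17a (-0.64), the last 4 of which are at the floor in VenusLow cells, and after quantile normalization for Mif (-0.53), Ccl28 (-0.73) and Ccl4 (-0.17). Both settings lower VenusHigh values against VenusLow values, by 0.66 log2 units under median centring. Part or all of that shift can come from the table itself, which holds 0 probe sets lower in VenusHigh cells. As deposited differences cannot be negative and rescaled ones may be lowered too far, these small differences have no settled direction. No paired analysis was possible because each population has 1 array. No result met a rule for a closer look, as those rules need at least 4 samples in a group, 2 contrasts or further data.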
